A study of Mus musculus with 7 samples.

Results

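The MHC class I and peptide loading genes described here are the 10 genes H2-K1, H2-D1, H2-Q4, H2-Q6, H2-Q7, H2-T22, B2m, Tap1, Tap2 and Tapbp, chosen by name from the 23930 genes of the deposited count tables. All 10 had enough counts to be tested. They were measured by targeted RNA sequencing, with 1 short amplicon per gene, in 7 libraries of progenitor cells sorted from mouse bone marrow. Every mouse, controls included, had zinc in its drinking water for 15 days. In pMT-10 mice zinc induces an Il10 transgene, driven by a metallothionein promoter, a kind of promoter active in many tissues, and BL/6 (C57BL/6) mice were the controls. The groups were pMT-10 haematopoietic stem cells (HSC, 1 library), pMT-10 lineage-negative SCA-1+ c-KIT+ cells that carried CD150 and CD48 (LSK CD150+CD48+, 2 libraries), pMT-10 common myeloid progenitors (CMPs, 2 libraries) and BL/6 CMPs (2 libraries). The gates of the HSC and CMP sorts are not given in the labels. No label says whether the libraries of a group came from separate mice, so p-values speak to the spread among these libraries only.

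MHC class I molecules display peptides from inside the cell to CD8+ T cells and to receptors of NK cells. A heavy chain pairs with beta-2 microglobulin (B2m) in the endoplasmic reticulum, where the TAP transporter, made of Tap1 and Tap2, delivers peptides cut by the proteasome, and tapasin (Tapbp) holds the empty heavy chain beside TAP until a peptide binds. Interferon-γ is known to raise the transcription of these genes through IRF1 and the transactivator NLRC5, and NF-kB acts on an enhancer close to the ISRE, the interferon-stimulated response element of the heavy chain promoters.

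The promoter stretches that hold both elements are shown first, because 7 of the members share them. Promoter windows from 250 bases before to 50 bases after the transcript start (RefSeq, GRCm38.p6) were given for 9 of the 10 members, all but Tap2. Capitals mark the matches to the NF-kB consensus and to the ISRE core, which was searched on both strands as GAANNGAAA and as a longer form with a further A before the NN. Each line runs 5′ to 3′ on the strand of the gene.
H2-K1: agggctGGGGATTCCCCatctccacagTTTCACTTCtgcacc
H2-D1: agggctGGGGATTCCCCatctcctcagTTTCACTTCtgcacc
H2-Q4: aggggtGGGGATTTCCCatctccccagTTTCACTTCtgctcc
H2-Q6: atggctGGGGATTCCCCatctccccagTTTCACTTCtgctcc
H2-Q7: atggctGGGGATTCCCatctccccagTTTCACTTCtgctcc
H2-T22: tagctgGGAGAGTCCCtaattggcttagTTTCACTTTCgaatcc
B2m: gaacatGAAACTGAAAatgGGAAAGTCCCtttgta

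The stretches lie at chr17:34000423-34000464 on the minus strand (H2-K1), chr17:35262917-35262958 (H2-D1), chr17:35379437-35379478 (H2-Q4), chr17:35424671-35424712 (H2-Q6) and chr17:35439016-35439056 (H2-Q7), the last 4 on the plus strand. Those of H2-T22 and B2m lie at chr17:36042918-36042961 on the minus strand and chr2:122147542-122147576 on the plus strand. In H2-K1, H2-D1, H2-Q4, H2-Q6 and H2-Q7 the NF-kB match came first and 10 bases separated it from the ISRE, against 12 bases in H2-T22. In B2m the order was the opposite, with 3 bases between the elements. The longer ISRE core was in the windows of H2-T22 and B2m and the shorter one in those of the other 5. One form or the other was in 7 of the 9 windows, against 10.4% of 27025 windows of all genes, and an NF-kB match was in the same 7, against 5.55%. Both together were in 0.496% of all windows. The heavy chain genes are copies of each other, so their windows are not independent cases to set beside these shares. The other letters searched were TGACG, a cyclic AMP response element half-site, in 7 of the 9 windows and in 5681 of all 27025, and CCAAT, in all 9 against 37.9% of all. The interferon-γ activated site TTCNNNGAA was in none of the 9, against 8.47% of all. Tap1 and Tapbp had neither an ISRE nor an NF-kB match in their windows. The Tapbp window (chr17:33919228-33919527) lies within the GENCODE bounds of the gene, which begin at 33915899, and the region at that start was not searched. The Tap1 window overlapped that of Psmb9, an immunoproteasome subunit read from the opposite strand, by 275 bases. These matches describe letters within fixed windows and were chosen with the sequences in view.

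**Figure D1:**
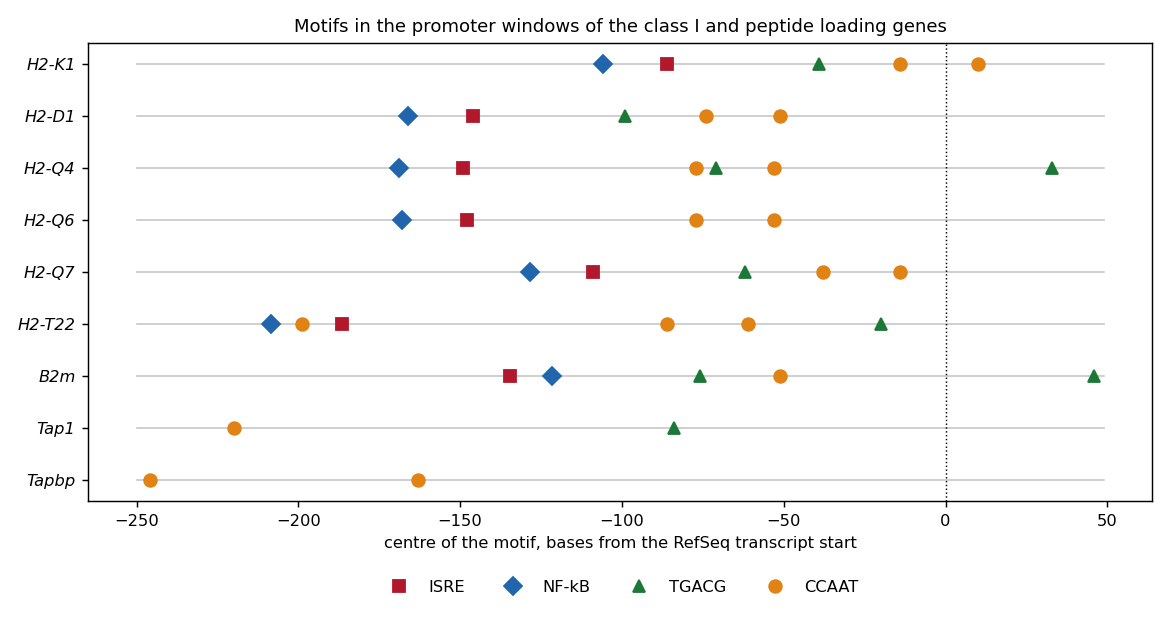
Position of motif matches (horizontal axis, bases from the RefSeq transcript start) in the promoter windows of 9 members (rows); each symbol is the centre of a match to the ISRE core, the NF-kB consensus, TGACG or CCAAT. The ISRE and NF-kB symbols stand side by side in 7 rows and are missing from the rows of Tap1 and Tapbp.

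All members but B2m lie on chromosome 17 (mm10, GENCODE M21): Tapbp at 33915899 to 33929292, H2-K1 at 33996017 to 34000347, Tap1 at 34187553 to 34197225, Tap2 at 34203527 to 34216321, H2-D1 at 35262730 to 35267499, H2-Q4 at 35379617 to 35385290, H2-Q6 at 35424850 to 35430055, H2-Q7 at 35439155 to 35443773 and H2-T22 at 36037128 to 36042747. B2m lies on chromosome 2 at 122147686 to 122153083. The heavy chains are close copies of each other, and the mRNAs of H2-Q6 and H2-Q7 were 87.8% identical and those of H2-K1 and H2-D1 87.0%. Where the amplicons lie is not given in the sources used here, so the share of all 100-base windows of an mRNA that also occurs in another gene was used as a measure of how readily reads could be shared. It was 16.4% for H2-Q7, 14.2% for H2-T22, 10.8% for H2-Q6, 4.64% for H2-D1 and 2.66% for H2-Q4. H2-K1, B2m, Tap1 and Tap2 shared no window, and Tapbp 0.107%. The split of counts among H2-D1, the H2-Q genes and H2-T22 is therefore uncertain. A sequence variant under an amplicon would also change its count, and the genetic background of the pMT-10 mice is not stated in the labels.

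Libraries held 7372430 to 13854314 counts. Levels are given as CPM, counts relative to a library's TMM-scaled total, and log2 fold changes with their standard error (SE) come from edgeR's quasi-likelihood test on all 7 libraries, called at an adjusted p under 0.05 (Benjamini-Hochberg over 11429 genes). LSK CD150+CD48+ libraries shared a sequencing chip with pMT-10 CMP libraries, and the HSC library shared the other with BL/6 CMP libraries, so in CMPs strain and chip coincide. The Y-linked gene Ddx3y also went with strain, at 197 to 1040 counts in the 5 pMT-10 libraries and 0 in both BL/6 libraries. Strain, chip and whatever separates the libraries in Ddx3y cannot be told apart in the CMPs. The Il10 amplicon had 0 to 2 counts in every library, which checks neither the transgene nor its product, since the cells that make it need not be those sorted. Ly6a, which encodes SCA-1, was at 331 CPM in HSC and at 326 and 249 CPM in LSK CD150+CD48+ cells, against 19.4 and 28.0 CPM in pMT-10 CMPs and as little as 0.0923 and 2.02 CPM in BL/6 CMPs. Cd48 was at 6.49 CPM in HSC and at 63.6 and 40.5 CPM in LSK CD150+CD48+ cells, as their gate asks. Slamf1 (CD150) was at 53.3 and 59.9 CPM there, against 12.8 and 12.1 CPM in pMT-10 and 25.5 and 19.3 CPM in BL/6 CMPs. Kit (c-KIT), also in the gate, was not higher there, at 81.2 and 118 CPM, against 95.3 and 140 CPM in pMT-10 CMPs. The stem cell gene Procr was at 38.5 CPM in HSC and at 0 to 2.20 CPM in every other library. Against pMT-10 CMPs, LSK CD150+CD48+ cells had 3 of 9 tested LSK and stem cell markers called higher and none lower, beside 5.92% of all tested genes each way. The median of these 9 markers was -0.24 on the log2 scale. Some CMP markers also differed between the CMPs of both strains. Of 8 CMP and myeloid progenitor markers 3 were higher and 1 lower in pMT-10 CMPs. Of all tested genes 14.3% were called higher and 13.7% lower, so the 1 lower is near the background. Kit, which encodes c-KIT, was lower, at 95.3 and 140 CPM, against 303 and 274 CPM in BL/6 CMPs (log2 fold change -1.29, adjusted p = 0.00623). The neutrophil elastase gene Elane was higher, at 27.0 and 30.7 CPM, against 5.91 and 2.99 CPM in BL/6 CMPs (2.70, adjusted p = 0.00249), as were the Fc receptor gene Fcgr3 (2.44, adjusted p = 0.00368) and the cytokine receptor gene Csf2rb (3.42, adjusted p = 0.000120). Mpo, a granule enzyme, was at 8.39 and 6.03 CPM in pMT-10 CMPs, against 12.1 and 16.8 CPM in BL/6 CMPs, and was not called (adjusted p = 0.110).

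The 10 members together took 1.51% of all counts in HSC, 1.53% and 1.59% in LSK CD150+CD48+ cells and 1.05% and 1.15% in pMT-10 CMPs, against 0.548% and 0.574% in BL/6 CMPs. Counting error is small beside these gaps: the exact 95% binomial interval of the HSC share was 1.50 to 1.52%, which covers counting error only because reads amplified without molecular identifiers are not independent molecules. For each of the 10 genes, every pMT-10 library lay above both BL/6 CMP libraries. The share of all tested genes that does so in every pMT-10 library at once was not computed. Taken 1 population at a time, 44.9% of all tested genes lay above and 45.7% below the BL/6 CMP libraries without overlap in HSC (1 library). These shares were 35.4% and 36.2% in LSK CD150+CD48+ cells and 33.2% and 33.7% in pMT-10 CMPs. In these sorted samples more RNA per cell and more cells of a high-expressing type cannot be told apart.

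**Figure D2:**
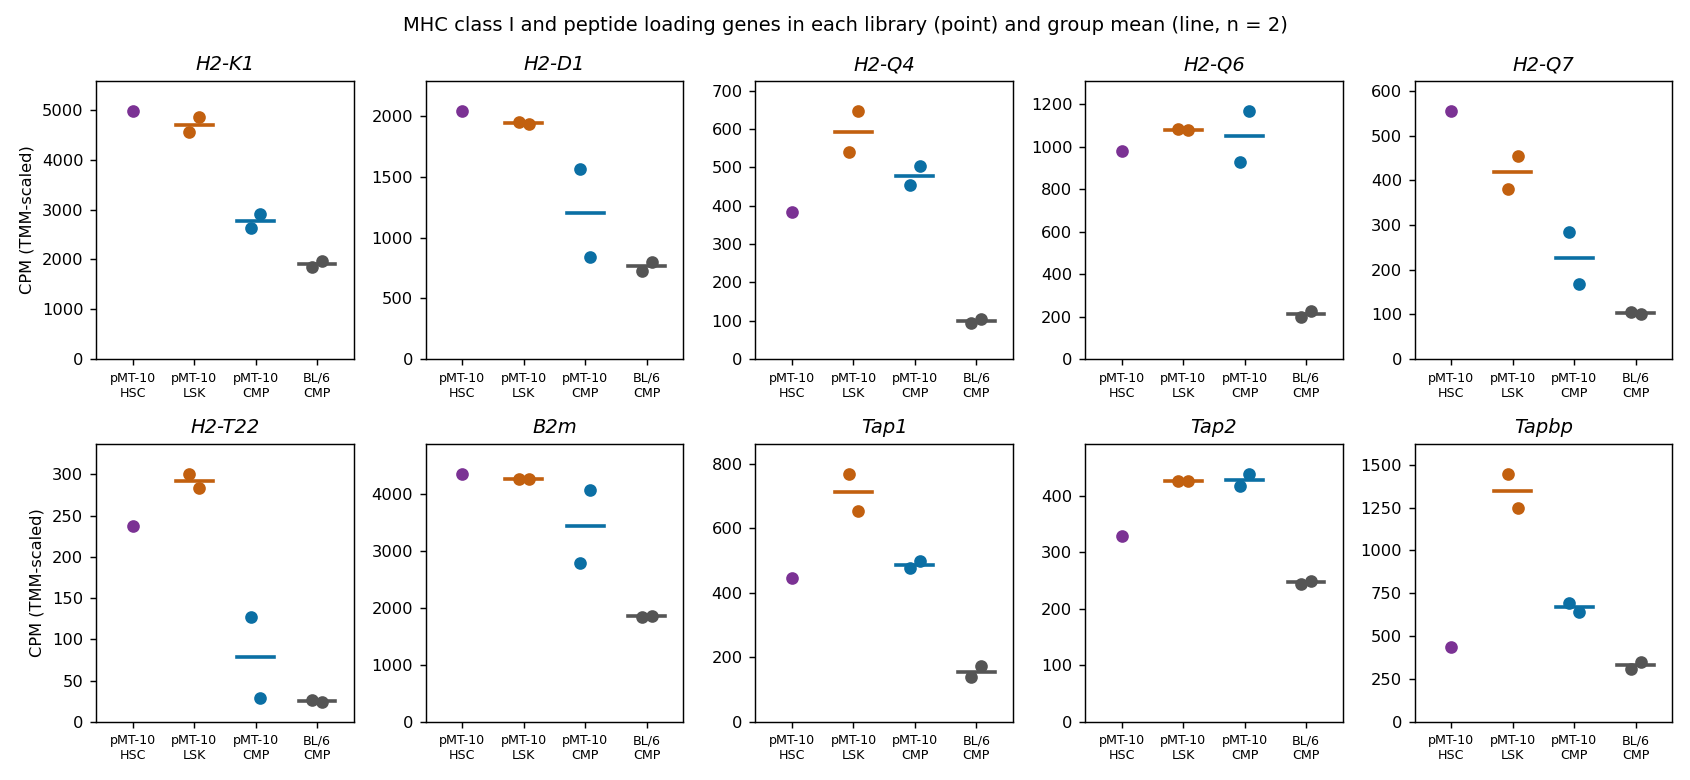
TMM-scaled CPM (vertical axes, each starting at 0) of the 10 members in pMT-10 HSC, pMT-10 LSK CD150+CD48+ cells (LSK), pMT-10 CMPs and BL/6 CMPs; each point is a library and each line a mean of 2. The BL/6 CMP points are the lowest in every panel, and the pMT-10 CMP points of H2-T22 (127 and 29.1 CPM) stand far apart.

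H2-K1 and H2-D1 encode the classical heavy chains, which present peptides to CD8+ T cells. H2-K1 was at 4980 CPM in HSC, at 4557 and 4847 CPM in LSK CD150+CD48+ cells and at 2635 and 2912 CPM in pMT-10 CMPs, against 1853 and 1968 CPM in BL/6 CMPs. The libraries of the 4 groups did not overlap, and the order ran from HSC down to BL/6 CMPs, as it did for H2-D1, H2-Q7 and B2m. The share of all tested genes with 4 groups apart was not computed. With 1 HSC library, 45.4% of all tested genes lay above and 41.6% below LSK CD150+CD48+ cells without overlap. The step between HSC and LSK CD150+CD48+ cells was not called (log2 fold change 0.08, 95% interval -0.37 to 0.54). H2-K1 was higher in pMT-10 CMPs than in BL/6 CMPs by 0.54 (SE 0.17, adjusted p = 0.0388) and higher in LSK CD150+CD48+ cells than in pMT-10 CMPs by 0.76 (SE 0.17, adjusted p = 0.0208) on the log2 scale. H2-D1 was at 2043 CPM in HSC, at 1953 and 1938 CPM in LSK CD150+CD48+ cells and at 1565 and 840 CPM in pMT-10 CMPs, against 727 and 801 CPM in BL/6 CMPs. The 2 pMT-10 CMP libraries differed by 1.86 times, with the lower one close to the BL/6 libraries. H2-D1 was the only member not called between pMT-10 and BL/6 CMPs (log2 fold change 0.65, SE 0.26, adjusted p = 0.0920, 95% interval 0.06 to 1.25). Without pMT-10 CMP replicate 1 this value was 0.14 (adjusted p = 0.509) and without replicate 2 it was 1.03 (adjusted p = 0.000152). With no filter on low counts H2-D1 was called (0.64, adjusted p = 0.0105). H2-D1 was higher than in BL/6 CMPs by 1.42 in HSC (SE 0.31, adjusted p = 0.0127) and by 1.35 in LSK CD150+CD48+ cells (SE 0.27, adjusted p = 0.0118).

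H2-Q4, H2-Q6 and H2-Q7 encode Qa heavy chains, and those of H2-Q6 and H2-Q7 are forms of Qa-2, which can be tethered to the membrane by a lipid anchor. H2-Q4 was at 383 CPM in HSC, at 539 and 648 CPM in LSK CD150+CD48+ cells and at 455 and 503 CPM in pMT-10 CMPs, against 94.4 and 104 CPM in BL/6 CMPs. H2-Q6 was at 979 CPM in HSC, at 1083 and 1079 CPM in LSK CD150+CD48+ cells and at 929 and 1169 CPM in pMT-10 CMPs, against 199 and 226 CPM in BL/6 CMPs. For these genes the pMT-10 populations lay closer to each other than to the BL/6 CMPs, which lay far below. In pMT-10 CMPs H2-Q4 was 4.82-fold and H2-Q6 4.94-fold higher than in BL/6 CMPs (log2 fold changes 2.27 and 2.31, SE 0.19 each, adjusted p = 0.000366 and 0.000379), the largest increases among the members. Neither differed between the pMT-10 populations beyond the threshold. For H2-Q4 the log2 fold change of HSC over LSK CD150+CD48+ cells was -0.63 (95% interval -1.14 to -0.13). For H2-Q6 the 95% interval of the log2 difference between LSK CD150+CD48+ cells and pMT-10 CMPs was -0.37 to 0.45.

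H2-Q7 followed another order, at 556 CPM in HSC, 381 and 455 CPM in LSK CD150+CD48+ cells, 285 and 169 CPM in pMT-10 CMPs and 104 and 102 CPM in BL/6 CMPs. Its groups did not overlap, and the order was that of H2-K1, H2-D1 and B2m. As for H2-K1, the share of all tested genes with such groups was not computed. H2-Q7 was higher in HSC than in pMT-10 CMPs (log2 fold change 1.29, SE 0.29, adjusted p = 0.0129) and higher in pMT-10 CMPs than in BL/6 CMPs (1.14, SE 0.25, adjusted p = 0.0105). Its difference between LSK CD150+CD48+ cells and pMT-10 CMPs was close to the threshold (0.88, SE 0.25, adjusted p = 0.0477). It was 0.55 without pMT-10 CMP replicate 2, and the difference between the CMPs was 0.71 without replicate 1. When the counts of all H2-Q genes were added into 1 row, which removes any misassignment of reads among them, the sum was higher in pMT-10 than in BL/6 CMPs by 2.10 on the log2 scale (adjusted p = 0.000538) and did not differ beyond the threshold between LSK CD150+CD48+ cells and pMT-10 CMPs (0.12, adjusted p = 0.683).

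H2-T22 encodes a non-classical heavy chain that does not need a bound peptide and is recognised by some γδ T cells. It had the widest range of the members, 12.7 times between the highest and the lowest library. Its level was 237 CPM in HSC, 301 and 283 CPM in LSK CD150+CD48+ cells, 127 and 29.1 CPM in pMT-10 CMPs and 25.8 and 23.8 CPM in BL/6 CMPs. The pMT-10 CMP libraries differed by 4.37 times, from 1151 and 251 counts, and the lower one was near the 279 and 294 counts of the BL/6 CMP libraries. H2-T22 was higher in pMT-10 than in BL/6 CMPs by 1.66 (SE 0.52, adjusted p = 0.0407), but without pMT-10 CMP replicate 1 the value was 0.23 (adjusted p = 0.306), and without replicate 2 it was 2.36 (adjusted p = 1.15e-07). It was called in 5 of 16 alternative analyses of this comparison, with adjusted p from 1.15e-07 to 0.389, so the difference between the CMPs rests on 1 library. In LSK CD150+CD48+ cells H2-T22 was 11.8-fold higher than in BL/6 CMPs (log2 fold change 3.56, SE 0.55, adjusted p = 0.00441), and in HSC 9.57-fold (3.26, SE 0.60, adjusted p = 0.00546). With any 1 library left out these log2 fold changes lay between 3.15 and 3.62, but neither was called without BL/6 CMP replicate 1 or 2 (adjusted p from 0.140 to 0.171), and that of LSK CD150+CD48+ cells was not called without either library of its own (adjusted p = 0.0825 and 0.0526). With no filter on low counts neither was called (adjusted p = 0.145 in LSK CD150+CD48+ cells and 0.186 in HSC), nor was the difference between the CMPs (adjusted p = 0.389).

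B2m, the light chain shared by all class I molecules, was at 4369 CPM in HSC, at 4268 and 4270 CPM in LSK CD150+CD48+ cells and at 2799 and 4077 CPM in pMT-10 CMPs, against 1851 and 1868 CPM in BL/6 CMPs. Its levels in HSC and LSK CD150+CD48+ cells differed by less than the error of the fit (log2 fold change 0.03, 95% interval -0.52 to 0.59). Between pMT-10 and BL/6 CMPs it was higher by 0.89 (SE 0.20, adjusted p = 0.0131), and by 0.59 without pMT-10 CMP replicate 2.

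Tap1 and Tap2 encode the paired chains of the peptide transporter. Both were lowest in BL/6 CMPs, but their levels spanned different ranges. Tap1 was at 447 CPM in HSC, at 771 and 656 CPM in LSK CD150+CD48+ cells and at 477 and 499 CPM in pMT-10 CMPs, against 139 and 172 CPM in BL/6 CMPs. Tap2 was at 328 CPM in HSC, at 426 CPM in each LSK CD150+CD48+ library and at 418 and 439 CPM in pMT-10 CMPs, against 244 and 249 CPM in BL/6 CMPs. Tap2 had the smallest range of the members, 1.80 times over the 7 libraries, against 5.56 times for Tap1. In pMT-10 CMPs Tap1 was 3.14-fold higher than in BL/6 CMPs (log2 fold change 1.65, SE 0.19, adjusted p = 0.00136) and Tap2 1.74-fold (0.80, SE 0.16, adjusted p = 0.00807). The difference between these 2 responses was not tested. Neither gene was called between LSK CD150+CD48+ cells and pMT-10 CMPs.

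Tapbp (tapasin) was the member that set the pMT-10 populations apart most clearly. It was at 436 CPM in HSC, at 1449 and 1246 CPM in LSK CD150+CD48+ cells and at 695 and 640 CPM in pMT-10 CMPs, against 306 and 352 CPM in BL/6 CMPs. It was highest in LSK CD150+CD48+ cells, 2.02-fold above pMT-10 CMPs (log2 fold change 1.01, SE 0.18, adjusted p = 0.00955) and 4.10-fold above BL/6 CMPs (2.03, SE 0.18, adjusted p = 0.000318). In HSC it was at 32.4% of the level in LSK CD150+CD48+ cells (log2 fold change -1.63, SE 0.23, adjusted p = 0.00331). The difference between HSC and BL/6 CMPs was not called (0.41, 95% interval -0.07 to 0.89). With only these groups in the fit it was called at the same 0.41, in a fit that called more genes in all. In pMT-10 CMPs Tapbp was higher than in BL/6 CMPs by 1.02 (SE 0.18, adjusted p = 0.00464).

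The pMT-10 and BL/6 CMPs carry the same cell label but differ in strain, in chip and in Ddx3y, which cannot be told apart. In pMT-10 CMPs 9 of the 10 members were called higher than in BL/6 CMPs and none lower. Of all tested genes 14.3% were called higher and 13.7% lower. The median log2 fold change of the members was 1.08, against 0.01 over all tested genes. The libraries of both groups did not overlap for any of the 10, all of them higher in pMT-10 CMPs, with 33.2% of all tested genes higher without overlap and 33.7% lower. The number called was 3 without BL/6 CMP replicate 1 (H2-Q4, H2-Q6 and Tap1) and 4 without BL/6 CMP replicate 2 (the same with Tapbp), in fits that called 582 and 764 genes in all, against 3204 with every library. Without pMT-10 CMP replicate 2 H2-D1 was at 1.03 and was called as well, in a fit that called more genes in all. H2-K1 was not called without either LSK CD150+CD48+ library (adjusted p = 0.0667 and 0.0639). With the contrast of LSK CD150+CD48+ cells over HSC, which span the 2 chips, subtracted as a stand-in for the chip, 4 members were called (H2-Q4, H2-Q6, H2-Q7 and Tap1) and Tapbp turned to -0.61 (adjusted p = 0.159). Of all tested genes 2125 were called after this subtraction, against 3204 before it. The contrast of LSK CD150+CD48+ cells over HSC also holds the difference between these cell populations.

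**Figure D3:**
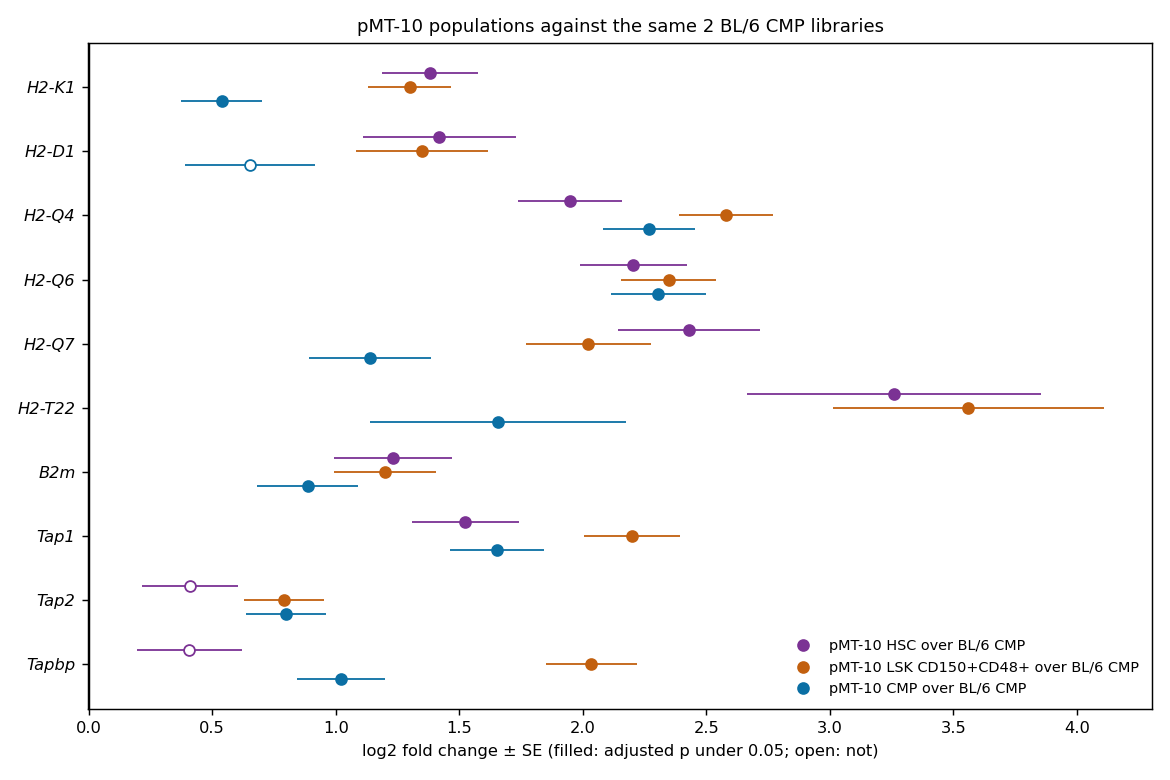
Log2 fold change (horizontal axis, bars: ± SE) of each member in pMT-10 HSC, pMT-10 LSK CD150+CD48+ cells and pMT-10 CMPs over the same 2 BL/6 CMP libraries; filled points have an adjusted p under 0.05. All points lie right of 0, and the open ones are H2-D1 in CMPs (0.65) and Tap2 and Tapbp in HSC (0.41 each).

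The other pMT-10 populations were set against the same BL/6 CMPs, so these comparisons share their control libraries and differ in cell population as well as strain, and for LSK CD150+CD48+ cells in chip too, which cannot be told apart. In HSC, which were read on the same chip as the BL/6 CMPs, 8 of the 10 members were called higher and none lower, with 11.8% of all tested genes called higher and 8.50% lower. The median log2 fold change was 1.47, and Tap2 (0.41, adjusted p = 0.165) and Tapbp (0.41, adjusted p = 0.207) were not called. With only these groups in the fit they were at 0.42 and 0.41 and both were called, in a fit that called more genes in all. HSC had 1 library, which is assumed to vary like the others. Without BL/6 CMP replicate 1 or replicate 2 fewer members were called, in fits that called fewer genes in all. H2-K1 (1.29 and 1.38), H2-Q4 (1.83 and 1.97), H2-Q6 (2.07 and 2.25), H2-Q7 (2.40 and 2.36) and Tap1 (1.33 and 1.64) kept their calls. In LSK CD150+CD48+ cells all 10 members were called higher, with 8.11% of all tested genes called higher and 8.50% lower, and the median log2 fold change was 2.03. Without any single LSK CD150+CD48+ or BL/6 CMP replicate fewer members were called, in fits that called fewer genes in all. H2-Q4, H2-Q6, H2-Q7, Tap1 and Tapbp kept their calls in each of these fits. Tapbp ran from 1.92 to 2.16 there, and Tap2, which lost its call, from 0.78 to 0.82. All 10 log2 fold changes stayed above 0.

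Within pMT-10 mice, LSK CD150+CD48+ cells were compared with CMPs on 1 chip. In all, 4 of the 10 members, H2-K1, H2-Q7, H2-T22 and Tapbp, were called higher in LSK CD150+CD48+ cells, and 5.92% of all tested genes were called higher and 5.92% lower. The median log2 fold change of the members was 0.62, against -0.01 over all tested genes. Without overlap between the groups, 8 members were higher in LSK CD150+CD48+ cells and none lower, with 27.8% of all tested genes higher in this way and 27.9% lower, while H2-Q6 and Tap2 overlapped. The largest difference was that of H2-T22 (1.90, SE 0.51, adjusted p = 0.0427), which was 3.33 when pMT-10 CMP replicate 1 was left out and 1.20 when replicate 2 was. These calls depended on the libraries in the fit. None of the members was called without LSK CD150+CD48+ replicate 1 or 2, in fits that called 44 and 96 genes in all, against 1354 with every library. Tapbp alone kept its call without BL/6 CMP replicate 1 or 2 (1.02 each time), in fits that called fewer genes in all. Without pMT-10 CMP replicate 1 or 2 more members were called, among them Tap1 (0.51 and 0.58), in fits that called more.

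HSC were also compared with the other pMT-10 populations. Against LSK CD150+CD48+ cells only Tapbp was called, lower in HSC, a share near the background, with 10.6% of all tested genes called higher and 8.15% lower. H2-Q4 (-0.63, adjusted p = 0.0785) and Tap1 (-0.67, adjusted p = 0.0724) were next and were not called. Without pMT-10 CMP replicate 1 or 2 both were called at the same -0.63 and -0.67, in fits that called more genes in all. Against pMT-10 CMPs, H2-K1 (0.84, SE 0.20, adjusted p = 0.0154) and H2-Q7 were called higher in HSC, which is also near the background, with 13.8% of all tested genes called higher and 11.7% lower. H2-T22 (1.60, SE 0.58, adjusted p = 0.0728) and Tapbp (-0.61, SE 0.22, adjusted p = 0.0710) were not, and that of H2-T22 was 3.03 when pMT-10 CMP replicate 1 was left out and 0.90 when replicate 2 was. Without pMT-10 CMP replicate 1 or 2 more members were called, in fits that called more genes in all. Without BL/6 CMP replicate 1 or 2 H2-K1 lost its call (0.80 and 0.78) and H2-Q7 kept it (1.25 and 1.23), in fits that called fewer. In both comparisons population and chip cannot be told apart. On simulated counts these fits with 1 HSC library recovered 9 of 94 genes changed by 1 on the log2 scale against LSK CD150+CD48+ cells and 15 of 100 against CMPs. The simulation changed fewer genes than the data called, at all levels of expression, so it does not give the recovery for the members. Few calls do not show that few members differ.

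**Figure D4:**
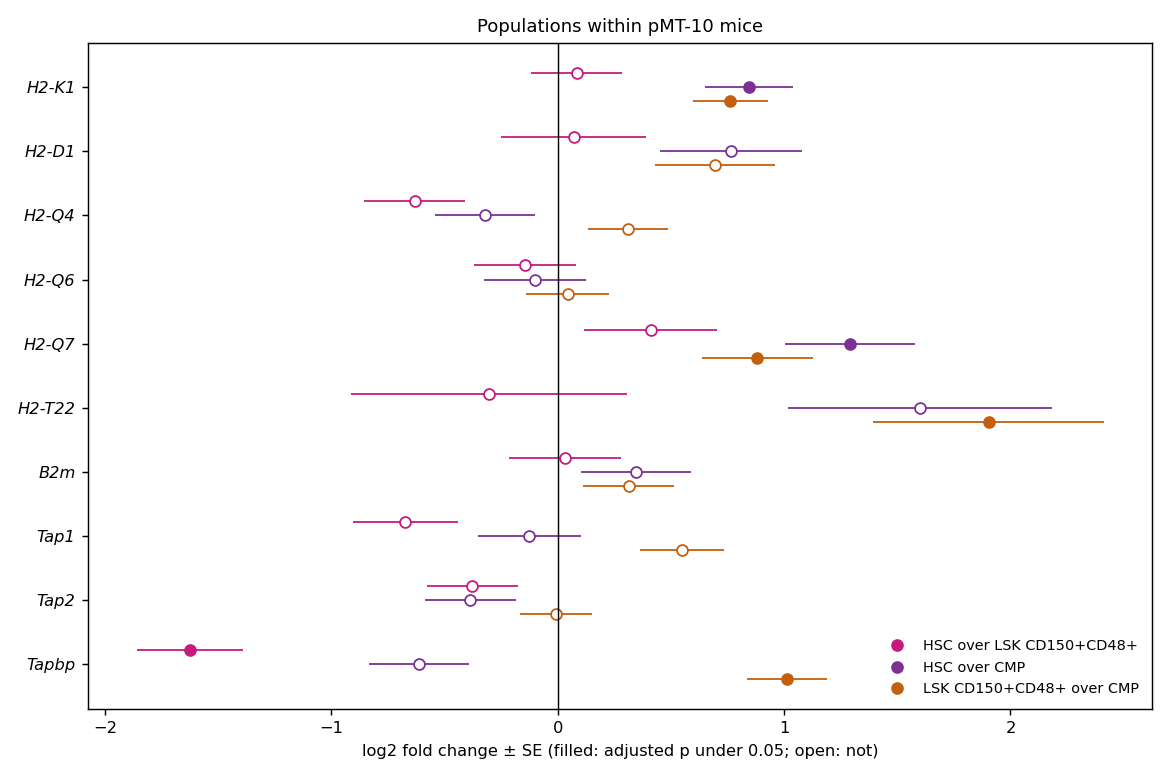
Log2 fold change (horizontal axis, bars: ± SE) of each member between populations of pMT-10 mice; filled points have an adjusted p under 0.05. Tapbp spans the widest range, at -1.63 in HSC over LSK CD150+CD48+ cells and 1.01 in LSK CD150+CD48+ cells over CMPs.

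The rest of the class I pathway was followed in 4 further lists, given for pMT-10 against BL/6 CMPs. Of all tested genes 14.3% were called higher and 13.7% lower there, so the few lower calls in these lists are near the background. Peptide supply covers the proteasome subunits, activators and peptidases that make and trim peptides. Of the 12 tested genes of this list 4 were higher and 2 lower. The immunoproteasome subunits were among those that rose. Psmb9 was at 179 and 302 CPM in pMT-10 CMPs, against 31.3 and 30.7 CPM in BL/6 CMPs (log2 fold change 2.95, SE 0.26, adjusted p = 0.000507). Psmb10 was higher by 2.74 (adjusted p = 0.000590), Psmb8 by 1.72 (adjusted p = 0.00314) and the proteasome activator subunit Psme1 by 1.16 (adjusted p = 0.00552). Lower were Psme3, a subunit of a nuclear proteasome activator (-0.61, adjusted p = 0.0454), and Nrd1, the peptidase nardilysin (-1.07, adjusted p = 0.00446). The smallest change was that of the aminopeptidase Lnpep (-0.26, adjusted p = 0.307). The median of the list was 0.09.

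Of 9 tested loading chaperones 3 were higher and none lower, with a median of -0.06. Tapbpl, a tapasin-like peptide editor, was at 126 and 111 CPM in pMT-10 CMPs, against 44.7 and 45.6 CPM in BL/6 CMPs (1.39, SE 0.21, adjusted p = 0.00282). The chaperone calreticulin (Calr) was higher by 1.06 (adjusted p = 0.00786) and the oxidoreductase Pdia3, which is part of the loading complex, by 0.55 (adjusted p = 0.0497). Sec61a1, a subunit of the channel through which new proteins enter the endoplasmic reticulum, had the smallest change (-0.06, adjusted p = 0.873).

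Of 11 tested regulators 3 were higher and 2 lower, with a median of -0.05. Irf1, the interferon-γ-induced factor that binds the ISRE, was at 626 CPM in HSC, 661 and 585 CPM in LSK CD150+CD48+ cells and 420 and 331 CPM in pMT-10 CMPs, against 63.3 and 76.2 CPM in BL/6 CMPs. All pMT-10 libraries were above the BL/6 ones (CMPs: 2.43, SE 0.20, adjusted p = 0.000403). Nlrc5, the class I transactivator, was at 257 CPM in HSC, 334 and 224 CPM in LSK CD150+CD48+ cells and 190 and 250 CPM in pMT-10 CMPs, against 75.4 and 65.0 CPM in BL/6 CMPs (CMPs: 1.64, SE 0.24, adjusted p = 0.00262). The subunits of the RFX complex, which recruits NLRC5, did not share a direction: Rfxank was higher (0.96, adjusted p = 0.0413), Rfxap lower (-1.22, adjusted p = 0.00476) and Rfx5 not called (-0.14, adjusted p = 0.701). Irf2, which can compete with IRF1 at the ISRE, was lower (-1.10, adjusted p = 0.00418), and the NF-kB subunit Rela had the smallest change (-0.04, adjusted p = 0.902).

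Of 24 other class I and class I-like heavy chains 18 were in the tables and 9 could be tested, of which 3 were higher and none lower, with a median of 0.87. H2-Q5 was higher by 2.18 (SE 0.28, adjusted p = 0.00189), although it shares mRNA windows with H2-Q7. H2-M3, which presents N-formylated bacterial peptides, was at 22.5 and 25.2 CPM in pMT-10 CMPs, against 6.65 and 6.87 CPM in BL/6 CMPs (1.82, SE 0.23, adjusted p = 0.00186), and H2-T24 was higher by 0.74 (adjusted p = 0.0231). The low-level lipid-presenting Cd1d2 (1.65, adjusted p = 0.109) and the iron regulator Hfe (-0.07, adjusted p = 0.934) were not called. In LSK CD150+CD48+ cells against pMT-10 CMPs, Irf1 (0.73, adjusted p = 0.0416) and Irf2 (0.84, adjusted p = 0.0226) were higher, and no gene of the other 3 lists was called. Of all tested genes 5.92% were called higher and 5.92% lower in this comparison. In HSC against BL/6 CMPs the calls were 3 higher and none lower among other heavy chains and 5 and 1 in peptide supply. They were 2 and 1 among loading chaperones and 2 and none among regulators, beside 11.8% of all tested genes higher and 8.50% lower. In HSC the neonatal Fc receptor heavy chain Fcgrt stood out, at 41.0 CPM against 1.85 and 3.39 CPM in BL/6 CMPs (3.95, SE 0.48, adjusted p = 0.000728). It was picked after its values were seen.

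**Figure D5:**
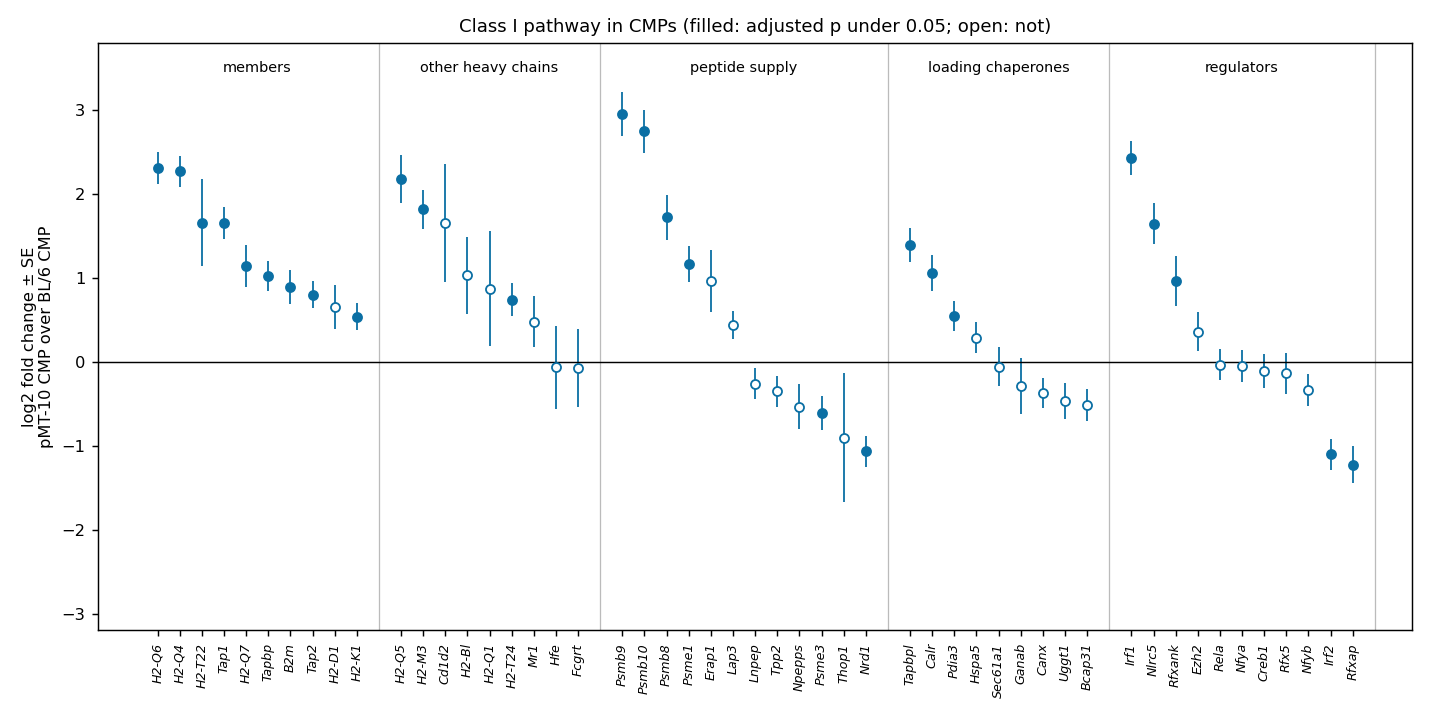
Log2 fold change in pMT-10 over BL/6 CMPs (vertical axis, bars: ± SE) of the members and of the tested genes of 4 further lists, sorted within each list; filled points have an adjusted p under 0.05. The members all lie above 0, whereas the other lists hold genes on both sides, from Psmb9 at 2.95 to Rfxap at -1.22.

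The patterns of the members over the 7 libraries were alike: Pearson's r between a member's centred log2 CPM and the mean of the other 9 ran from 0.81 (Tapbp) to 0.96 (Tap1). These libraries fall into 4 groups, so r largely describes group levels and carries no p. Among 6619 other genes with a mean of 20 CPM or more, 135 had an r of 0.9 or more with the members' mean profile. The 8 highest were Gnb2 (0.991), Irf1 (0.986), Clic1 (0.985), Gmpr (0.985), Rint1 (0.984), Anapc13 (0.984), Tmub1 (0.981) and Limk1 (0.980). Irf1 was the one with the largest difference between CMPs. Gnb2, a G protein subunit, was at 708 CPM in HSC, 763 and 728 CPM in LSK CD150+CD48+ cells and 677 and 664 CPM in pMT-10 CMPs, against 518 CPM in each BL/6 CMP library, and its difference between CMPs was not called (0.37, adjusted p = 0.113).

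Neighbouring genes on chromosome 17 were looked at because 9 members lie in 1 interval, from 33915899 to 36042747. Of the 68 other tested genes within it, leaving out H2 and immunoproteasome genes, 17.6% were called higher and 4.41% lower in pMT-10 than in BL/6 CMPs. Of the 468 tested genes elsewhere on that chromosome 15.8% were higher and 13.5% lower.

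Markers of mature cells were summed by list. The summed CPM of the T and NK cell markers was 3.64 to 4.40 in pMT-10 CMPs and 2.59 to 2.91 in BL/6 CMPs, with Cd3d, Ncr1 and Klrd1 at 0 in every library. B and plasma cell markers summed to 11.4 to 19.9 CPM in pMT-10 CMPs and 15.6 to 17.4 CPM in BL/6 CMPs. They were at 54.0 CPM in HSC, where Cd79b made up 52.3 CPM. Macrophage and monocyte markers summed to 6.72 to 25.9 CPM in pMT-10 CMPs and 11.6 to 13.5 CPM in BL/6 CMPs, with C1qc at 0 in every library. Mature neutrophil markers summed to 3.36 to 5.96 CPM in pMT-10 CMPs and 1.86 to 10.4 CPM in BL/6 CMPs. The dendritic cell list summed to 322 to 328 CPM in pMT-10 CMPs and 153 to 156 CPM in BL/6 CMPs. Most of that was Bst2, at 275 and 287 CPM in pMT-10 CMPs against 107 and 93.6 CPM in BL/6 CMPs, a gene that interferons also induce. Zbtb46 was at 28.2 and 32.0 CPM in pMT-10 CMPs, against 30.7 and 34.6 CPM in BL/6 CMPs, and Flt3, which progenitors also express, at 17.7 and 7.65 CPM in pMT-10 CMPs, against 17.3 and 22.2 CPM in BL/6 CMPs, while Xcr1, Cd209a and Siglech were at 0 in every library. The part of such cells in the members' levels was not tested. Other genes that were higher in pMT-10 CMPs were Ly6a, a marker of the LSK gate (4.41, SE 0.60, adjusted p = 0.00218), Cd48 (1.69, SE 0.33, adjusted p = 0.00641) and the progenitor genes Elane, Fcgr3 and Csf2rb given above. Of the 9 tested LSK and stem cell markers 2 were higher and 2 lower, Kit among the latter, with a median log2 fold change of 0.02. Of all tested genes 14.3% were called higher and 13.7% lower. A difference in the makeup of the sorted CMPs was not tested.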

How the data were processed

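The authors deposited raw counts, the number of reads for each amplicon, with a table for each chip, after RNA extraction from sorted cells and Ion AmpliSeq library preparation per the labels' protocols. The submitters' processing notes name the build mm10. Which aligner and counter were used is not given in the sources used here. Every column was matched to its sample by table and barcode. Counts were analysed with edgeR 4.0.16 in R 4.3.3: filterByExpr (minimum count 10) kept 11429 genes, TMM factors scaled the libraries, and 1 mean for each of the 4 groups left 3 residual degrees of freedom, so that all groups share 1 estimate of the spread. Contrasts were tested by quasi-likelihood F-tests (robust). The SE is the log2 fold change divided by the square root of F. Tested on simulated counts for pMT-10 against BL/6 CMPs (11022 genes), it found 84 of 98 genes altered by 2 and 32 of 95 altered by 1 on the log2 scale, with 7.94% false calls. For HSC, with 1 library, against BL/6 CMPs (10982 genes) it found 73 of 99 and 6 of 95, with 4.82% false calls. The limit that a count of 0 allows (3 counts) was 0.217 to 0.407 CPM.

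The members, lists and motifs were chosen with earlier results of these data known. Beside the members, the text names per list the 3 genes with the largest and the 1 with the smallest change between CMPs, any gene that a small count refers to, and the 8 genes whose pattern is most like that of the members. Of the 24 other heavy chains, 13 peptide supply genes, 10 loading chaperones and 14 regulators listed, 18, 12, 9 and 11 were found in the tables. Alternatives were RLE factors, unscaled totals, DESeq2 1.42.0, limma-voom (limma 3.58.1), no filter, a minimum count of 50 and H2-Q genes summed. Further ones were each replicate left out, only the groups compared and a replicate block. The last was the subtraction of the contrast of LSK CD150+CD48+ cells over HSC, a stand-in for the chip. Positions and mRNAs are from GENCODE M21 (GRCm38), promoters from RefSeq (GRCm38.p6).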

Additional observations from a re-analysis of the deposited data

How the results depend on the processing

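Over 16 alternative settings and 6 comparisons, 747 of 862 single-gene results kept their direction and their side of the threshold, 77 lost the call, 28 gained one and 10 changed sign. Leaving out each replicate in turn moved the number of members called between 3 and 10 for pMT-10 against BL/6 CMPs (9 with all libraries), 0 and 6 for LSK CD150+CD48+ cells against pMT-10 CMPs (4), 5 and 9 for HSC against BL/6 CMPs (8), 5 and 10 for LSK CD150+CD48+ cells against BL/6 CMPs (10), 1 and 5 for HSC against pMT-10 CMPs (2), and 1 and 3 for HSC against LSK CD150+CD48+ cells (1). The numbers of all genes called moved in the same fits, from 582 to 5268 between CMPs and from 44 to 4274 for LSK CD150+CD48+ cells against CMPs, since a group left with 1 library changes the estimate of the spread.

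Subtracting the contrast of LSK CD150+CD48+ cells over HSC left 4 members called between CMPs, and Tapbp became -0.606. This contrast is a stand-in for the chip and also holds the difference between these populations. With only the 2 groups in the fit, 1 member was called for LSK CD150+CD48+ cells against CMPs (595 genes in all, against 1354). Between CMPs 7 were called (2274 genes, against 3204), where H2-K1 (adjusted p = 0.0532) and H2-T22 (adjusted p = 0.107) lost the call. In the HSC fits of this setting only the other group's libraries give the spread. Tap2 and Tapbp gained a call against BL/6 CMPs (0.42 and 0.41), as did H2-Q4 and Tap1 against LSK CD150+CD48+ cells (-0.68 and -0.72). Both of these fits called more genes in all. Against pMT-10 CMPs H2-K1 lost its call (0.79), in a fit that called fewer. With no filter H2-T22 lost its 4 calls (adjusted p from 0.145 to 0.389), and H2-D1 was called between CMPs, in LSK CD150+CD48+ cells against CMPs and in HSC against pMT-10 CMPs (adjusted p = 0.0105, 0.00735 and 0.0139). DESeq2 and the fit with no filter each called 2 for HSC against LSK CD150+CD48+ cells (Tap1 and Tapbp), and summing the H2-Q genes left 1 (H2-K1) for HSC against pMT-10 CMPs, since H2-Q7 is then part of a sum. The other causes were not tested. The other sign changes were of differences near 0 that were not called. In LSK CD150+CD48+ cells against CMPs, Tap2 was 0.00401 with no filter, and with single replicates left out it ran from -0.0446 to 0.0272 and H2-Q6 from -0.114 to 0.217. In HSC against LSK CD150+CD48+ cells, B2m ran from -0.0373 to 0.0339 and was -0.0112 with only those groups, and H2-D1 ran from -3.51e-05 to 0.0758. In HSC against pMT-10 CMPs, H2-Q6 ran from -0.256 to 0.0741 and the median log2 fold change of the members from -0.0299 to 0.229.

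RLE factors left every call of a member as it was, and unscaled totals and the minimum count of 50 each ended the call of H2-Q7 in LSK CD150+CD48+ cells against CMPs. H2-T22 between CMPs was not called by DESeq2 (adjusted p = 0.0972) or limma-voom (adjusted p = 0.112). Same-numbered libraries did not deviate together over all tested genes (correlations across genes of -0.019, -0.019 and -0.076). A pairing that touches only some genes was not tested. With a replicate block 8 members were called between CMPs, 3 for LSK CD150+CD48+ cells against pMT-10 CMPs and 10 for LSK CD150+CD48+ cells against BL/6 CMPs, and H2-T22 lost its call in both of the first (adjusted p = 0.111 and 0.0696). Having 2 libraries a group and 1 in HSC limits what these counts can show: the pMT-10 CMP pair had an SD of 0.823 for its log2 difference across genes, against 0.474 for the LSK CD150+CD48+ pair and 0.385 for the BL/6 pair.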
